A study of Sus scrofa with 41 samples.

Results

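The comparison described here is that of Landrace with Duroc pigs in the psoas major, a loin muscle along the spine. All 41 pigs of the series entered, 28 of them Danbred Landrace and 13 Danbred Duroc, and every pig gave 1 RNA sequencing library. The groups were taken from the breed label alone and from no measured value. All pigs were purebred, uncastrated males, were fed freely, and were slaughtered after a test in which feed intake and growth were recorded. No pig was treated, and nothing but breed separated the groups by design, although feed use, age and slaughter day also differed, as given below. The muscle was taken directly after slaughter and kept in RNAlater, a salt solution that preserves RNA.

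Skeletal muscle is built of slow fibres, which burn fat and sugar in mitochondria, and of fast fibres, which hold more of the contractile and glycolytic enzymes. Between the fibres lie capillaries, a sheath of collagens and laminins, fat cells, nerve endings and satellite cells, the stem cells of the muscle. Landrace is a white maternal breed kept for litter size and a long lean carcass, and Duroc is a red sire breed known for the fat within its muscles. In a piece of whole muscle, fewer cells of a type cannot be told apart from less RNA per cell.

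Between 22188911 and 25954816 read pairs were counted on genes per pig, which was 69.9 to 80.9% of its pairs, and the ranges of the breeds overlapped. RNA integrity (RIN) was 6.5 to 8.3 in the Landrace pigs (median 8.0) and 7.0 to 8.8 in the Duroc pigs (median 8.2). The Landrace pigs needed more feed per weight gained, with a feed conversion ratio (FCR) of 1.92 to 2.25 (median 2.1) against 1.83 to 2.18 (median 1.94), and were 147 to 166 days old (median 154.5) against 131 to 156 days (median 148). The slaughter batches 2, 3, 4 and 5 held 3, 2, 3 and 4 Duroc pigs beside 12, 7, 2 and 7 Landrace pigs, and batch 1 held 1 Duroc pig. RIN, FCR, age and batch together accounted for 58.7% of the variation in breed, so that breed could be told apart from them only in part. As markers of the labelled tissue, the actin gene ACTA1 had 73873 to 149040 CPM in the Landrace pigs (median 106680) and 80968 to 113550 CPM in the Duroc pigs (median 99119), while the marker gene of fat cells ADIPOQ had a median of 1.32 CPM in Landrace and 2.15 CPM in Duroc. The fibre myosins MYH1, MYH4 and MYH7 had no row under these symbols. CPM are the counts of a gene per 1000000 counts of its library after TMM scaling, a correction for differences in library composition. The 7 fat cell markers, summed without this scaling, had a median of 47.5 CPM in Landrace and 36.4 CPM in Duroc, the reverse of ADIPOQ alone.

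Each gene was tested with edgeR in a model with FCR, RIN, age, batch and breed. The log2 fold changes given below are the breed term of this model, with Landrace minus Duroc, so that a positive value is a higher level in Landrace at equal FCR, RIN, age and batch, and ± gives its standard error (SE). A gene is called higher or lower where its Benjamini-Hochberg adjusted p-value (FDR) over all tested genes was below 0.1. Of the 25880 genes in the files, 11146 passed the filter on low counts, and 3692 of them (33.1%) were called. There were 1737 genes (15.6%) higher and 1955 (17.5%) lower in Landrace, and 2836 genes (25.4%) had an FDR below 0.05. Most differences were small. The median size among the called genes was 0.48 on the log2 scale, or 1.4-fold, and 1943 of them (52.6%) differed by less than 0.5. Only 409 genes (3.67%) were called with a difference of at least 2-fold, and these were mostly lower in Landrace, with 345 genes (3.1%) lower and 64 (0.574%) higher.

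The split into higher and lower genes depended on the scaling. With libraries scaled by their total count only, the median log2 fold change of all genes moved from -0.0024 to -0.18, and 534 genes were higher and 3596 lower. Directions below are relative to the median gene. Of 72 gene lists, 38 had a median above 0, of which 32 turned below 0 with that scaling, and only the ribosomal proteins, fast-fibre genes, proteasome subunits, glycolytic enzymes, red cell markers and histone genes did not. Of the called genes, 2201 (59.6%) differed in the same direction in each of the 4 batches that held both breeds, against 1451 (19.5%) of the genes that were not called. DESeq2, with another filter on low counts, and limma were run on the same model, and 3390 of the 3692 genes were called by both of them too.

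The breeds were separated fully by 10 genes (0.0897% of those tested), whose lowest CPM in 1 breed was above the highest in the other. Of these, 8 (0.0718%) were higher in Landrace and 2 (0.0179%) in Duroc. The gene with the smallest p-value of all was TBC1D7 (chr7:9685273-9708781 on Sscrofa11.1), which encodes the third subunit of the TSC complex, a brake on the growth kinase mTORC1. Its level was 13.4 to 27.1 CPM in the Landrace pigs (median 20) and 7.57 to 13.3 CPM in the Duroc pigs (median 10.4). Every Landrace pig was thus above every Duroc pig, and the fitted difference was 1.3 ± 0.1 (SE, FDR = 1.90e-11), or 2.45-fold. Within batches 2 to 5 the log2 CPM differed by 0.92, 0.97, 0.99 and 1.18. In the list of TSC and mTORC1 genes around it, 8 of 37 tested members were higher and 4 lower, a share close to that of all genes, with a median of 0.04 that turned to -0.13 with library size only.

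IDI1, an isomerase of the mevalonate pathway by which cells make cholesterol, had 22.1 to 62.4 CPM in the Landrace pigs (median 33.1) and 12.3 to 18.3 CPM in the Duroc pigs (median 15.8). The lowest Landrace pig was above the highest Duroc pig, with a fitted difference of 1.26 ± 0.12 (SE, FDR = 3.97e-09). ACSM5 (chr3:25393121-25422551), a mitochondrial enzyme that activates medium-chain fatty acids, had 19.9 to 47.3 CPM in the Landrace pigs (median 34.5) and 8.96 to 15.4 CPM in the Duroc pigs (median 10.5). It was 3.16-fold higher in Landrace (1.66 ± 0.16, FDR = 7.55e-09). ASB1 (chr15:137931419-137952050), an adaptor of a ubiquitin ligase, had 58.3 to 129 CPM in the Landrace pigs (median 92.3) and 26.2 to 48.9 CPM in the Duroc pigs (median 38.7), and its difference of 1.33 ± 0.14 (SE, FDR = 2.60e-08) kept its sign in every batch, at 0.92, 1.43, 1.28 and 1.58. FHIP2B had 29.8 to 65.4 CPM in the Landrace pigs (median 37.2) and 22.8 to 29.4 CPM in the Duroc pigs (median 25.1), with a fitted difference of 0.68 (FDR = 8.85e-06). EFCAB2 (chr10:17558224-17655269), which encodes a protein with calcium-binding EF hands, was low in both breeds, at 1.25 to 4.48 CPM in the Landrace pigs (median 1.78) and 0.626 to 1.2 CPM in the Duroc pigs (median 0.939), with a fitted difference of 0.95 (FDR = 0.00212). For these 5 genes the breeds did not overlap in any pig.

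Both genes that were fully separated in the other direction were at low levels. MSRB2 (chr10:51888828-51910725), a methionine sulfoxide reductase of mitochondria that repairs oxidised protein, had 0.465 to 2.36 CPM in the Landrace pigs (median 1.24) and 2.73 to 6.57 CPM in the Duroc pigs (median 4.7). Its level was 3.96-fold lower in Landrace (-1.99 ± 0.21, FDR = 2.12e-08), and the batches gave -1.87, -1.84, -1.09 and -2.0. FAM151B (chr2:89109259-89144270) had 0.232 to 2.07 CPM in the Landrace pigs (median 0.852) and 2.07 to 3.67 CPM in the Duroc pigs (median 2.63), with a fitted difference of -1.86 (FDR = 3.23e-05). The lowest Duroc pig and the highest Landrace pig of FAM151B lay next to each other, both at about 2.07 CPM. MSRB1, the selenium-containing member of the same repair system, was higher in Landrace. It had 35.4 to 113 CPM in the Landrace pigs (median 64.2) and 21.1 to 61.1 CPM in the Duroc pigs (median 30.2), with a fitted difference of 0.77 ± 0.17 (SE, FDR = 0.00162). MSRA was lower in Landrace (-0.44, FDR = 0.00706), and MSRB3, the last of the 4 members tested, was not called (0.22, FDR = 0.265).

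The largest fold change among them belonged to a gene with no symbol, ENSSSCG00000035340. It had 87 to 314 CPM in the Landrace pigs (median 147), whereas 12 of the 13 Duroc pigs lay between 2.76 and 6.09 CPM and the remaining one, Duroc pig 12, had 69.7 CPM. The difference was 4.91 ± 0.45 (SE, FDR = 1.76e-09). ENSSSCG00000005880 was the other unnamed gene without overlap, at 8.14 to 17.2 CPM in the Landrace pigs (median 11.1) and 4.29 to 7.85 CPM in the Duroc pigs (median 5.16), with a fitted difference of 1.07 (FDR = 3.09e-09). ENSSSCG00000007826 had the third smallest p-value of all genes, and its levels of 36.1 to 63.9 CPM in the Landrace pigs (median 45.2) and 23.8 to 37.1 CPM in the Duroc pigs (median 27) overlapped by little (0.79 ± 0.07, FDR = 1.76e-09). What these 3 genes encode is not given by the gene table used here.

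**Figure D1:**
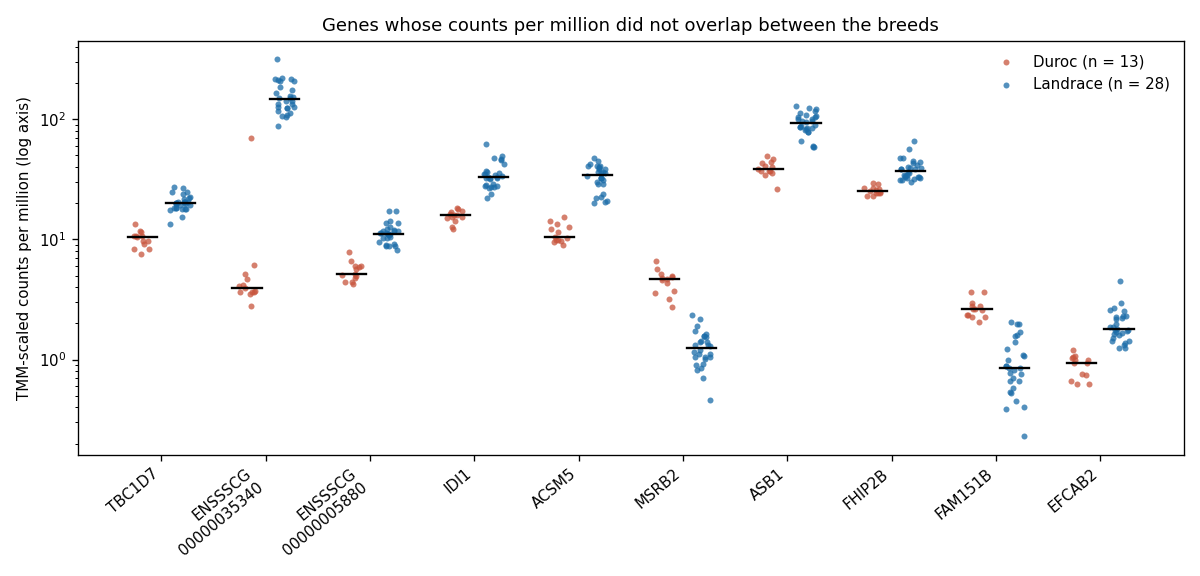
TMM-scaled CPM (log axis) of the 10 genes whose values did not overlap between the breeds, with 1 point per pig (13 Duroc, 28 Landrace) and a bar at the median of each breed. Each Landrace point lies above each Duroc point for 8 genes and below it for MSRB2 and FAM151B; 1 Duroc pig stands apart at ENSSSCG00000035340, at 69.7 CPM.

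Among the other genes with the smallest p-values and higher levels in Landrace, PFDN4, a subunit of the chaperone prefoldin, had 13.8 to 32.6 CPM in the Landrace pigs (median 18.3) and 8.53 to 15.4 CPM in the Duroc pigs (median 11), with a fitted difference of 1.07 ± 0.11 (SE, FDR = 1.17e-08). Of the 28 Landrace pigs, 26 were above the highest Duroc pig. TPT1, a growth-related protein whose RNA was among the more abundant ones, had 4764 to 9913 CPM in the Landrace pigs (median 6707) and 4026 to 6422 CPM in the Duroc pigs (median 4934), and it was 1.67-fold higher (0.74 ± 0.09, FDR = 5.18e-07). Its ranges overlapped, as 10 Landrace pigs were within the Duroc range. SH3BGR, which is expressed mainly in heart and skeletal muscle, differed by 0.65 ± 0.08 (SE, FDR = 8.74e-07), and ERCC6L2, a helicase-like protein of DNA repair, by 0.67 ± 0.09 (SE, FDR = 1.26e-06). KCNH2, a voltage-gated potassium channel, had 3.56 to 28.8 CPM in the Landrace pigs (median 9.47) and 1.56 to 5.17 CPM in the Duroc pigs (median 2.85). All but 1 of the Landrace pigs were above every Duroc pig, and the difference of 2.23 ± 0.29 (SE, FDR = 1.39e-06) was one of the largest. Other large differences in this direction were found for KCNK7, of the two-pore potassium channel family (1.83, FDR = 4.55e-05), for the RecQ helicase WRN (1.37, FDR = 4.55e-05) and for GDNF, a neurotrophic factor (1.51, FDR = 0.0109). GPX2, a glutathione peroxidase, differed by 2.27 ± 0.78 (SE, FDR = 0.0289), but its level varied widely, at 0.42 to 44 CPM in the Landrace pigs (median 9.72) and 0.564 to 14.5 CPM in the Duroc pigs (median 1.49).

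Some calls of large folds were lost when 1 pig was left out. PFKFB3, which sets the level of an activator of glycolysis, was called with 1.68 ± 0.73 (SE, FDR = 0.088) although its levels of 11.1 to 1864 CPM in the Landrace pigs (median 118) and 12.8 to 653 CPM in the Duroc pigs (median 72.4) overlapped almost fully. It was lower in Landrace within batches 3 and 4 (the batches gave 0.32, -1.17, -1.12 and 0.21), and the call was lost when any 1 of the Duroc pigs 1, 3, 5, 6, 9, 10 or 11 was left out, with log2 fold changes from 1.45 to 1.84. NPR3, the clearance receptor of natriuretic peptides (1.45, FDR = 0.0786), lost its call without Duroc pig 1, 4, 6 or 10, at 1.33 to 1.37.

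Of the genes lower in Landrace, CD93, a receptor on the surface of endothelial cells, had the smallest p-value. It had 2.98 to 16.1 CPM in the Landrace pigs (median 8.24) and 7.13 to 24.6 CPM in the Duroc pigs (median 15.3), so that the ranges overlapped while 11 Landrace pigs were below the lowest Duroc pig, and the difference was -1.63 ± 0.16 (SE, FDR = 1.07e-08). WLS, which carries Wnt proteins to the cell surface, had 2.73 to 7.08 CPM in the Landrace pigs (median 4.58) and 4.45 to 14.3 CPM in the Duroc pigs (median 9.28), and a fitted difference of -1.33 ± 0.14 (SE, FDR = 1.17e-08). The batches gave -0.92, -0.45, -0.89 and -1.56 for WLS, each lower in Landrace. PDZD9 was all but separated. It had 2.38 to 9.53 CPM in the Landrace pigs (median 4.72) and 29.8 to 99.9 CPM in 12 Duroc pigs, while Duroc pig 9 had 2.57 CPM, within the Landrace range. Its fitted difference was -2.75 ± 0.35 (SE, FDR = 1.14e-06), a 6.72-fold lower level in Landrace. SYTL2, of the synaptotagmin-like proteins that tether vesicles, had 1.82 to 8.07 CPM in the Landrace pigs (median 4.08) and 3.72 to 20.2 CPM in the Duroc pigs (median 14), with a fitted difference of -1.85 ± 0.24 (SE, FDR = 1.49e-06). TCAF1, a partner of the cold-sensing channel TRPM8, had 4.43 to 23.9 CPM in the Landrace pigs (median 7.32) and 13.9 to 66.4 CPM in the Duroc pigs (median 19.7), and 26 of the Landrace pigs were below every Duroc pig (-1.75 ± 0.22, FDR = 1.06e-06).

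The others of this group were 1.84-fold (ABCA2) to 3.41-fold (MFAP3L) lower. They were WSCD1 (-1.05, FDR = 3.32e-07), MFAP3L (-1.77, FDR = 4.21e-07), the lipid transporter ABCA2 (-0.88, FDR = 1.14e-06), wolframin of the endoplasmic reticulum, WFS1 (-1.04, FDR = 1.39e-06), the desaturase family member FADS3 (-1.06, FDR = 1.48e-06) and NDUFA4L2 (-1.01, FDR = 2.42e-06), a mitochondrial protein that hypoxia induces. These 6 genes were lower in Landrace in each of the 4 batches, except MFAP3L in batch 3.

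The largest fold change of the named genes that were lower in Landrace was that of THBS2, a glycoprotein of the matrix around cells. It had 0.702 to 32.3 CPM in the Landrace pigs (median 2.37), and the Duroc pigs fell into 5 with 1.68 to 10.3 CPM and 8 with 45.5 to 136 CPM. No Landrace pig reached the upper range, and the fitted difference of -4.1 ± 0.88 (SE, FDR = 0.000942) stands for this mixture rather than for a shift of all pigs. The Duroc pigs were split for PLEKHB1 too, with 6 at 0.313 to 1.35 CPM and 7 at 5.41 to 18 CPM. The Landrace pigs had 0.166 to 5.73 CPM (median 0.705), so that here the highest of them reached the upper range. The fitted difference was -3.21 ± 0.72 (SE, FDR = 0.00141). SNAI3, a zinc finger protein of the snail family, differed by -2.51 ± 0.36 (SE, FDR = 6.11e-06), and 23 Landrace pigs were below every Duroc pig. B3GALT1, a galactosyltransferase, differed by -2.24 ± 0.46 (SE, FDR = 0.000677) and CDHR1, a cadherin-related protein, by -2.73 ± 0.56 (SE, FDR = 0.000646). In both of the last genes most Landrace pigs were below the Duroc range, at 23 and 21 of 28.

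The proteins of the cytosolic ribosome, which translates messenger RNA, were higher in Landrace almost throughout. Of 51 symbols in the files, 46 passed the filter, and 41 of these were higher in Landrace and none lower, where 15.6% of all genes were higher. Their median log2 fold change was 0.44, and 45 of the 46 had a positive value. RPL5, which also binds the 5S RNA of the ribosome, had 178 to 279 CPM in the Landrace pigs (median 209) and 131 to 239 CPM in the Duroc pigs (median 157), and a fitted difference of 0.68 ± 0.07 (SE, FDR = 6.80e-08). All but 2 of the Duroc pigs were below the lowest Landrace pig. RPL4 had 528 to 1072 CPM in the Landrace pigs (median 663) and 434 to 803 CPM in the Duroc pigs (median 561), with a fitted difference of 0.49 ± 0.06 (SE, FDR = 1.22e-06), and RPS25 had 178 to 393 CPM in the Landrace pigs (median 229) and 131 to 283 CPM in the Duroc pigs (median 179.8), with a fitted difference of 0.61 ± 0.08 (SE, FDR = 1.53e-06). The ranges of these last 2 genes overlapped. The 5 members that did not pass the test were RPS28, RPL7L1, RPLP2, RPL3 and FAU, with values from -0.05 to 0.26. The median stayed above 0 in the models for which it was computed, at 0.26 with library size only, 0.21 without FCR and age, 0.24 with breed alone, 0.15 in batches 2 and 3 and 0.29 in batches 4 and 5, while the number of members called fell to 21 with breed alone and to 7 and 25 in these pairs of batches. Near-identical copies of ribosomal protein genes are common, and read pairs with several equally good positions were left out of the counts, so single members are less certain than the family.

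Translation factors were also more often higher than lower. In this list 24 of 53 tested members were higher and 3 lower, or 45.3% higher against 15.6% of all genes (median 0.17). EIF4A2, the helicase that unwinds the start of messenger RNA, had 341 to 643 CPM in the Landrace pigs (median 427) and 256 to 737 CPM in the Duroc pigs (median 402), and its fitted difference of 0.68 ± 0.09 (SE, FDR = 1.49e-06) was larger than the raw medians show. Within the batches it differed by 0.45, 0.06, 0.37 and 0.56, and its call was lost with breed alone (0.19, FDR = 0.223) and in batches 2 and 3 (0.28, FDR = 0.13). The elongation factors EEF1D and EEF1B2, which recharge the factor that brings tRNA to the ribosome, differed by 0.73 ± 0.1 (SE, FDR = 2.51e-06) and 0.54 ± 0.08 (SE, FDR = 8.77e-06). EEF1A2, the form of that factor found in muscle, had 4955 to 8514 CPM in the Landrace pigs (median 6093) and 4460 to 6362 CPM in the Duroc pigs (median 4956), with a fitted difference of 0.45 ± 0.09 (SE, FDR = 0.000397). With library size only the median of the translation factors was -0.01, with 7 higher and 8 lower. With breed alone it was 0.06, with 6 higher and 2 lower. In batches 2 and 3 it was 0.03, with 5 and 1, and in batches 4 and 5 it was 0.15, with 14 and 1. The enzymes that load tRNAs had 7 higher and 1 lower of 36, the splicing factors 20 and 4 of 80, and subunits of RNA polymerase II and the mediator 11 and 2 of 35, and their medians of 0.08 to 0.09 fell below 0 with library size only. Of the enzymes that load tRNAs 22.2% were called and of the splicing factors 30%, both below the 33.1% of all genes.

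The proteasome, which breaks down tagged proteins, had 14 of 38 tested subunits and regulators higher in Landrace and none lower, where 15.6% of all genes were higher, with a median of 0.19. The differences were small. PSMF1, a regulator of the proteasome, had 45 to 80.6 CPM in the Landrace pigs (median 55.5) and 37.2 to 62 CPM in the Duroc pigs (median 47.4) and differed by 0.3 ± 0.07 (SE, FDR = 0.00162), PSMD11 by 0.41 ± 0.1 (SE, FDR = 0.00223) and PSMC3 by 0.38 ± 0.09 (SE, FDR = 0.00322). The ranges of all 3 overlapped, and the median of the list was 0.02 with library size only, where 1 member was higher and 1 lower. Of the genes of muscle wasting and autophagy, 13 of 42 were higher and 3 lower, or 38.1% called against 33.1% of all genes (median 0.16, which turned to -0.02 with library size only). The called genes of the unfolded protein response went the other way. In the list of the unfolded protein response, 13 of 32 members were lower and none higher, where 17.5% of all genes were lower, with a median of -0.23. Its leading members were HYOU1 (-0.5, FDR = 0.0001), CALR (-0.38, FDR = 0.0013) and HSP90B1 (-0.38, FDR = 0.00409), which fold proteins on their way out of the cell. In batches 2 and 3 alone this median was -0.05, and HSP90B1 itself differed by 0.04 and 0.03 within these batches.

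The contractile genes of fast fibres were mostly higher in Landrace. Of 15 tested members, 10 were higher and none lower, where 15.6% of all genes were higher, and all 15 had positive values, with a median of 0.44. TNNT3, the troponin T of fast fibres that holds the calcium switch on the thin filament, had 6139 to 26569 CPM in the Landrace pigs (median 12058) and 7371 to 17360 CPM in the Duroc pigs (median 9408), and a fitted difference of 0.6 ± 0.13 (SE, FDR = 0.00108). MYBPC2, the fast myosin-binding protein C, had 3124 to 10132 CPM in the Landrace pigs (median 7923) and 5108 to 10338 CPM in the Duroc pigs (median 6465), with a fitted difference of 0.54 ± 0.13 (SE, FDR = 0.00261), and MYOZ1, an anchor protein of the Z line, differed by 0.37 ± 0.08 (SE, FDR = 0.00117). Among the called members was ACTA1, the actin of the thin filament, which was 1.3-fold higher (0.38 ± 0.11, FDR = 0.0115). The ranges of the breeds overlapped in these 4 genes. The median of the list was 0.25 with library size only and between 0.16 and 0.26 with breed alone, without FCR and age and in either pair of batches, but only 2, 9, 0 and 2 members were called in these.

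Slow-fibre genes had lower fitted values, with less certainty. Of 11 tested members, 3 were lower and 1 higher, and 9 had negative values, with a median of -0.6. The 36.4% called were close to the 33.1% of all genes. The lower ones were the slow troponin I, TNNI1, at 168 to 2427 CPM in the Landrace pigs (median 776) and 578 to 1975 CPM in the Duroc pigs (median 879), a fitted difference of -0.79 ± 0.3 (FDR = 0.0514), the slow myosin MYH7B (-0.79 ± 0.3, FDR = 0.05) and the calcium pump ATP2A2 (-0.73 ± 0.32, FDR = 0.0903). Each of these 3 calls was lost without Duroc pig 3, at -0.61, -0.55 and -0.55, and that of ATP2A2 also without Duroc pig 6, 7 or 11, at -0.79 to -0.65. SLN, a small inhibitor of the calcium pump that slow fibres carry, was higher in Landrace (0.45 ± 0.16, FDR = 0.034). The markers chosen for slow fibres summed to 1458 to 19170 CPM in the Landrace pigs (median 5163) and 4545 to 12810 CPM in the Duroc pigs (median 6890), and the widest spread was thus among the Landrace pigs. With breed alone the median of the slow-fibre list was -0.2 and in batches 4 and 5 -0.16, with none of the members called in either. Adding a slow-fibre and a fat-cell score to the model left 1410 genes higher and 1588 lower over all genes. It brought the lists of oxidative metabolism nearer to 0, with medians going from -0.19 to -0.05 for fatty acid oxidation, from -0.17 to -0.04 for the citric acid cycle and from -0.16 to -0.04 for the respiratory chain.

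Of the genes that handle calcium in the fibre, 9 of 29 were higher and 4 lower, or 44.8% called against 33.1% of all genes (median 0.13, but -0.04 with library size only, where 5 were higher and 5 lower). JPH1, junctophilin, which ties the surface membrane to the calcium store, was one of the genes with the smallest p-values. It had 295 to 558 CPM in the Landrace pigs (median 417) and 198 to 435 CPM in the Duroc pigs (median 286), and a fitted difference of 0.81 ± 0.1 (SE, FDR = 3.38e-07), with 10 Landrace pigs above every Duroc pig. The calcium-dependent kinase CAMK2D (0.53, FDR = 0.000174) and the release channel RYR3 (1.22, FDR = 0.00727) were also higher. Structural genes of the sarcomere were higher in 12 and lower in 2 of 37, or 37.8% called (median 0.16, but -0.02 with library size only). Of the developmental contractile genes, MYH3, a myosin of the embryo that is also made in regenerating fibres, was lower at 12.5 to 49.8 CPM in the Landrace pigs (median 22.4) and 16.9 to 125 CPM in the Duroc pigs (median 35.8), a fitted difference of -1.0 ± 0.34 (FDR = 0.028), and the other 5 of 6 tested were not called.

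At the junction of nerve and muscle, 4 of 14 tested genes were lower in Landrace and 3 higher, or 50% called against 33.1% of all genes. With breed alone 1 was lower and 1 higher. In batches 2 and 3 it was 1 lower and none higher, and in batches 4 and 5 it was 2 lower and 1 higher. ACHE, the esterase that clears acetylcholine, had 0.169 to 7.86 CPM in the Landrace pigs (median 1.05) and 0.302 to 15.4 CPM in the Duroc pigs (median 1.73), and a fitted difference of -2.81 ± 0.71 (SE, FDR = 0.0038). The receptor subunit CHRNA1 differed by -1.5 ± 0.38 (SE, FDR = 0.00411), the organizer of the junction AGRN by -0.8 ± 0.18 (SE, FDR = 0.00128) and the laminin LAMB2 of its basement membrane by -1.01 ± 0.16 (SE, FDR = 1.86e-05). ERBB2, a receptor for neuregulin, was higher, at 15 to 45 CPM in the Landrace pigs (median 24.5) and 13.5 to 24.1 CPM in the Duroc pigs (median 15.2), a fitted difference of 0.8 ± 0.17 (FDR = 0.00104). The ranges overlapped in all 5, and ACHE was not lower in batch 2, nor AGRN in batch 3. Among a wider list of Schwann cell and nerve markers, 3 were tested, of which 2 were lower and none higher, with a median of -0.81. Of all genes 17.5% were lower. The lower ones were PMP22 (-0.81, FDR = 0.0137) and PRX (-0.81, FDR = 0.0494), both proteins of myelinating Schwann cells. Only 1 was lower without FCR and age, with breed alone, with the fibre and fat scores added and in batches 4 and 5. In batches 2 and 3 none was lower. Of the 4 Schwann cell markers chosen for the check of cell types, 3 had a row in the files and none passed the filter. The sum of these was 0 to 124 CPM in the Landrace pigs (median 0.222) and 0 to 171 CPM in the Duroc pigs (median 4.69), so that it differed widely between pigs of both breeds. The part of nerve in the values of the junction was not tested.

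Genes of fat use were lower in Landrace more often than higher. In the list of fatty acid oxidation, 14 of 40 tested members were lower and 1 higher, where 17.5% of all genes were lower and 15.6% higher, with a median of -0.19. With the slow-fibre and fat-cell scores added, 10 were lower and 4 higher and the median was -0.05, and in batches 4 and 5 it was -0.1 with 5 lower. They included the steps by which fat enters the fibre. LPL, the lipase of capillary walls that frees fatty acids from blood lipids, had 38.9 to 295 CPM in the Landrace pigs (median 110.2) and 109 to 267 CPM in the Duroc pigs (median 194), and a fitted difference of -1.32 ± 0.24 (SE, FDR = 0.000195). SLC27A1, a fatty acid transporter, had 22.1 to 52.9 CPM in the Landrace pigs (median 29) and 32.5 to 66.2 CPM in the Duroc pigs (median 48.6), with 20 Landrace pigs below every Duroc pig and a fitted difference of -0.93 ± 0.13 (SE, FDR = 2.51e-06). FABP3, which carries fatty acids in the cytosol, differed by -0.91 ± 0.23 (SE, FDR = 0.00358), ACSL1, which activates them, by -0.67 ± 0.14 (SE, FDR = 0.000696), ACOT11, a thioesterase that reverses this step, by -1.42 ± 0.24 (SE, FDR = 7.14e-05), and CPT1B, the gate into muscle mitochondria, by -0.58 ± 0.17 (SE, FDR = 0.0112). Within the batches, LPL was lower in each of the 4 (-0.99, -0.79, -0.94 and -1.33), whereas ACOT11 was higher in batches 3 and 4. The single member that was higher was ACADS, the dehydrogenase of short-chain fatty acids, at 52.6 to 125 CPM in the Landrace pigs (median 79.2) and 31.7 to 83.4 CPM in the Duroc pigs (median 49.3), a fitted difference of 0.64 ± 0.16 (FDR = 0.0043).

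The next steps of energy release were also more often lower than higher. Of 24 enzymes of the citric acid cycle, 8 were lower and 1 higher, or 33.3% lower against 17.5% of all genes. Their median was -0.17, and 0.02 in batches 4 and 5, and with the fibre and fat scores added it was -0.04, with 1 lower and 1 higher. The lower ones were led by malate dehydrogenase MDH1 (-0.55, FDR = 0.0131), PDHA1 of the pyruvate dehydrogenase complex (-0.38, FDR = 0.0141) and SDHA, a subunit of succinate dehydrogenase (-0.31, FDR = 0.0194, but FDR = 0.138 with -0.21 without Duroc pig 3). Of 56 nuclear genes for the respiratory chain, 16 were lower and 1 higher, with a median of -0.16, or -0.04 with these scores added. Of this list 28.6% were lower, and the 30.4% called in either direction were below the 33.1% of all genes. COX8A of cytochrome oxidase had 12.8 to 59.5 CPM in the Landrace pigs (median 20.3) and 19.3 to 81 CPM in the Duroc pigs (median 24.7), a fitted difference of -0.68 ± 0.12 (FDR = 0.000172), and ATP5MC3 of ATP synthase differed by -0.65 ± 0.17 (SE, FDR = 0.00499). The number of lower members changed with the model, from 40 with library size only and 36 without FCR and age to 7 with the fibre and fat scores added and 5 with breed alone. None of the 13 genes of the mitochondrial genome was called, and their median was -0.09, with 0 calls in DESeq2 and limma as well and 0 genes at an unadjusted p below 0.05 in edgeR. With breed alone this median was 0.006. They took 9.21 to 29.4% of the counts in the Landrace pigs (median 13.8%) and 8.5 to 30.8% in the Duroc pigs (median 13.7%), and their means differed by -0.7 percentage points (permutation test with 100000 resamples, two-sided, p = 0.666). After adjustment for RIN and batch this difference of means was -1.86 percentage points (p = 0.0715).

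Among regulators of mitochondrial content, the orphan receptors ESRRB and ESRRG, which switch on genes of oxidative metabolism, were lower in Landrace. ESRRB had 1.85 to 21.5 CPM in the Landrace pigs (median 5.39) and 5.39 to 22.4 CPM in the Duroc pigs (median 12.3), a fitted difference of -1.71 ± 0.29 (FDR = 6.71e-05), and ESRRG had 1.42 to 7.68 CPM in the Landrace pigs (median 2.98) and 3.01 to 35 CPM in the Duroc pigs (median 4.96), a fitted difference of -1.37 ± 0.27 (FDR = 0.000448). Both were lower in each of the 4 batches. Their coactivator PPARGC1A was called with -0.71 ± 0.3 (SE, FDR = 0.0808), but without Duroc pig 10 the value was -0.41 with FDR = 0.287, and the call was also lost without Duroc pig 3, 4 or 5, at -0.7 to -0.65. The list as a whole had 5 lower and 2 higher of 32, and the 21.9% called were below the 33.1% of all genes.

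The enzymes of glycolysis were called in both directions. Of 25 tested, 10 were higher and 5 lower, or 60% called against 33.1% of all genes (median 0.17, 0.01 with library size only and 0.03 with breed alone). These counts were 2 and 3 without FCR and age, 1 and 1 with breed alone, 0 and 1 in batches 2 and 3 and 0 and 4 in batches 4 and 5. The higher ones included GAPDH at 21235 to 67973 CPM in the Landrace pigs (median 45374) and 25025 to 56630 CPM in the Duroc pigs (median 38256), a fitted difference of 0.48 ± 0.13 (FDR = 0.0056) and the aldolase ALDOA (0.37 ± 0.13, FDR = 0.0294), while the lower ones were led by forms that are widespread in other tissues, PGAM1 at 7.63 to 19 CPM in the Landrace pigs (median 12) and 8.23 to 18.4 CPM in the Duroc pigs (median 15.1), a fitted difference of -0.59 ± 0.13 (FDR = 0.0011), the liver-type phosphofructokinase PFKL (-0.57, FDR = 0.00208) and hexokinase HK1 (-0.72, FDR = 0.00397). In glycogen metabolism, 7 of 27 were higher and 6 lower, or 48.1% called (median 0.03, but -0.15 with library size only). PHKA1, a muscle subunit of phosphorylase kinase (0.51, FDR = 0.000667), and the AMP-activated kinase subunits PRKAA2 (0.52, FDR = 0.00103) and PRKAG3 were higher, and PYGL, the liver form of glycogen phosphorylase, was lower at 11.8 to 24 CPM in the Landrace pigs (median 16.9) and 17.3 to 28.3 CPM in the Duroc pigs (median 24.6), a fitted difference of -0.57 ± 0.09 (FDR = 2.62e-05). The genes that buffer ATP had 5 higher and 4 lower of 15, or 60% called (median 0.08, but -0.1 with library size only), with ADSL (0.59, FDR = 8.99e-05) and AMPD1 (0.58, FDR = 0.000421) of the purine cycle higher and the brain-type creatine kinase CKB lower (-1.1, FDR = 0.000855).

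SLC2A4, the glucose transporter that insulin brings to the surface, was lower, at 96.6 to 252 CPM in the Landrace pigs (median 157) and 136 to 231 CPM in the Duroc pigs (median 189.7), a fitted difference of -0.6 ± 0.11 (FDR = 0.00024), although not in batch 3. Of the genes around it, PIK3R3, a regulatory subunit of phosphoinositide 3-kinase, was lower (-1.29, FDR = 6.65e-06) and FLOT1, a scaffold of membrane rafts, higher (0.66, FDR = 1.58e-06). The list had 5 higher and 6 lower of 29, or 37.9% called against 33.1% of all genes. Of the amino acid transporters, 7 of 22 were lower and 2 higher, or 31.8% lower against 17.5% of all genes. SLC38A4, a carrier of neutral amino acids, had 2.17 to 16.3 CPM in the Landrace pigs (median 6.6) and 12.5 to 31.3 CPM in the Duroc pigs (median 22.5), and 27 of 28 Landrace pigs were below the lowest Duroc pig (-1.65 ± 0.25, FDR = 1.45e-05). Its relative SLC38A2 had 35.7 to 108 CPM in the Landrace pigs (median 55.9) and 37.3 to 183 CPM in the Duroc pigs (median 91.9), with a fitted difference of -0.64 ± 0.14 (SE, FDR = 0.00133). Over the 123 solute carriers outside the mitochondrial family, 35 were lower and 6 higher. The 33.3% called were close to the 33.1% of all genes, with 28.5% lower and 4.88% higher against 17.5% and 15.6%, and the zinc transporter SLC39A6 (-0.72, FDR = 2.23e-05) was among the lower ones. In batches 2 and 3, 11 solute carriers were lower and 2 higher, and their median went from -0.2 to -0.03. Of the amino acid transporters 3 were lower and none higher there, and their median went from -0.37 to -0.02.

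Genes that make fat were also more often lower than higher in Landrace. Of 26 tested, 14 were lower and 2 higher, or 53.8% and 7.69% against 17.5% and 15.6% of all genes, with a median of -0.36 that stayed below 0 in the alternatives for which it was computed, at -0.14 in batches 4 and 5 at the least. MLXIPL, the carbohydrate-sensing factor that switches on fat synthesis, had 1.02 to 13.8 CPM in the Landrace pigs (median 3.12) and 1.95 to 12.3 CPM in the Duroc pigs (median 6.37), and a fitted difference of -1.99 ± 0.29 (SE, FDR = 8.58e-06). ACACA, which makes the first committed building block of fatty acids, had 2.74 to 10.5 CPM in the Landrace pigs (median 4.75) and 4.45 to 8.17 CPM in the Duroc pigs (median 7.15), with a fitted difference of -0.94 ± 0.16 (SE, FDR = 6.13e-05). GPAM, the first enzyme of triglyceride assembly, had 0.694 to 7.3 CPM in the Landrace pigs (median 1.98) and 1.9 to 5.22 CPM in the Duroc pigs (median 3.74), with a fitted difference of -1.18 ± 0.25 (SE, FDR = 0.000877). The ranges overlapped, with 1 or 2 Landrace pigs above all Duroc pigs in each of the 3 genes. The desaturase SCD differed by -1.39 ± 0.48 (SE, FDR = 0.0297). The synthase FASN was called at -1.1 ± 0.47 (SE, FDR = 0.0789), but not without Duroc pig 1 or 10, at -1.0 and -1.02. FADS2, which desaturates essential fatty acids, was higher, at 3.36 to 63.3 CPM in the Landrace pigs (median 25.5) and 3.45 to 28.9 CPM in the Duroc pigs (median 7.9), a fitted difference of 1.06 ± 0.44 (FDR = 0.0715), and its call was lost without Duroc pig 6, at 1.02.

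The cholesterol genes did not move together. Beside IDI1, 3 others of 25 tested were higher and 7 lower, or 16% higher and 28% lower against 15.6% and 17.5% of all genes. DHCR7, the last reductase of cholesterol synthesis, had 0.705 to 2.57 CPM in the Landrace pigs (median 1.67) and 2.16 to 4.24 CPM in the Duroc pigs (median 3.24), and 25 Landrace pigs were below every Duroc pig (-0.95 ± 0.21, FDR = 0.00119). SREBF2, the factor that switches the pathway on, differed by -0.63 ± 0.14 (SE, FDR = 0.0011) and was not lower in batch 2. Of the genes of fat cells and lipid droplets, 5 of 16 were lower and none higher, and the 31.2% called were below the 33.1% of all genes. PLIN5, a droplet protein of oxidative muscle, had 2.9 to 48.3 CPM in the Landrace pigs (median 14.7) and 11.9 to 42.9 CPM in the Duroc pigs (median 21.9), a fitted difference of -1.2 ± 0.32 (FDR = 0.00655). ABHD5, a coactivator of the lipase that opens the droplet, had 4.79 to 8.11 CPM in the Landrace pigs (median 6.1) and 6.26 to 11.6 CPM in the Duroc pigs (median 9.41), a fitted difference of -0.42 ± 0.11 (FDR = 0.00408), and FITM2, which helps droplets form, differed by -0.42 ± 0.12 (SE, FDR = 0.00855). The fat cell hormone ADIPOQ was called at -2.67 ± 1.0 (SE, FDR = 0.0451), but its call was lost without Duroc pig 1 (-1.86, FDR = 0.256) or Duroc pig 5 (-2.44, FDR = 0.103), and it ranged over 0.1 to 63.9 CPM in the Landrace pigs (median 1.32) and 0.352 to 43.6 CPM in the Duroc pigs (median 2.15). The 7 fat cell markers summed to 13.9 to 203 CPM in the Landrace pigs (median 47.5) and 18.5 to 173 CPM in the Duroc pigs (median 36.4), LEP had a median count of 0, and 4 were tested.

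Vessel genes were lower in Landrace. Of 13 tested endothelial markers 12 were lower, where 17.5% of all genes were, with a median of -0.91. KDR, the main receptor of the vessel growth factor VEGF, had 2.04 to 13.9 CPM in the Landrace pigs (median 4.89) and 2.46 to 11.2 CPM in the Duroc pigs (median 7.8), and a fitted difference of -1.48 ± 0.22 (SE, FDR = 9.52e-06). ROBO4 had 3.35 to 13.7 CPM in the Landrace pigs (median 7.63) and 5.2 to 14.8 CPM in the Duroc pigs (median 9.82), with a fitted difference of -1.03 ± 0.16 (SE, FDR = 1.62e-05), and ENG, endoglin, had 21.6 to 90.3 CPM in the Landrace pigs (median 32.9) and 12.9 to 62.6 CPM in the Duroc pigs (median 40.8), with a fitted difference of -0.91 ± 0.13 (SE, FDR = 3.37e-06). The raw ranges of these genes overlapped nearly fully. Within the batches ENG differed by -0.45, 0.05, 0.06 and -0.64, so that batches 3 and 4 did not show it, and KDR by -0.15, -0.28, -0.94 and -1.32. VEGFA, the growth factor itself, was lower at 23.4 to 91.6 CPM in the Landrace pigs (median 35.9) and 45 to 90.2 CPM in the Duroc pigs (median 67.9), with 22 Landrace pigs below every Duroc pig (-0.85 ± 0.18, FDR = 0.001) and a difference in each batch (-0.84, -0.69, -0.51 and -0.74). Of 10 markers of smooth muscle and pericytes, the cells that wrap vessels, 6 were lower and 1 higher, or 60% lower against 17.5% of all genes. Their median was -0.98, against -0.46 with breed alone, where 4 were lower. In batches 2 and 3 it was -0.3 and none was called. MCAM (-1.45 ± 0.22, FDR = 1.42e-05), NOTCH3 (-1.29 ± 0.2, FDR = 1.85e-05) and KCNJ8 (-1.08 ± 0.18, FDR = 5.77e-05) were lower, and LMOD1, an actin-nucleating leiomodin, was higher (1.3 ± 0.22, FDR = 5.97e-05).

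The median of the endothelial markers was below 0 in the models for which it was computed, from -0.33 in batches 2 and 3 and -0.33 with breed alone to -1.08 with library size only, and 2 and 6 members were lower in the first and second of these. The endothelial markers chosen for the check of cell types summed to 27.7 to 165 CPM in the Landrace pigs (median 95) and 55.4 to 204 CPM in the Duroc pigs (median 138). Their part in the differences of other genes was not tested. Leukocyte markers did not share this, as 1 of 16 was lower and none higher, and their sum was 11.9 to 128 CPM in the Landrace pigs (median 55.3) and 25.1 to 106 CPM in the Duroc pigs (median 49.9).

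Genes of the matrix around the fibres were lower in Landrace in the joint model. Of 21 collagens tested, 13 were lower in Landrace and none higher, where 17.5% of all genes were lower, with a median of -0.94. Of 32 laminins, integrins and other basement membrane genes, 22 were lower (median -0.59), and of 40 genes of the interstitial matrix and of fibroblasts, 17 (median -0.68), again with none higher. The shares lower were 61.9, 68.8 and 42.5%. COL4A2, a chain of the type IV collagen of basement membranes, had 68 to 278 CPM in the Landrace pigs (median 171) and 102 to 369.7 CPM in the Duroc pigs (median 189.8), and a fitted difference of -1.16 ± 0.17 (SE, FDR = 8.04e-06). COL18A1 differed by -1.32 ± 0.32 (SE, FDR = 0.00284) and COL4A5 by -1.1 ± 0.27 (SE, FDR = 0.0033). The basement membrane linker NID2 had 3.42 to 30.2 CPM in the Landrace pigs (median 13) and 5.2 to 28.8 CPM in the Duroc pigs (median 14.1), a fitted difference of -1.3 ± 0.27 (FDR = 0.000657), and LAMA5, a laminin chain, 7.67 to 21.8 CPM in the Landrace pigs (median 15.1) and 11.3 to 30.7 CPM in the Duroc pigs (median 22.5), a fitted difference of -0.82 ± 0.16 (FDR = 0.000291). PDGFRB, a receptor of pericytes and fibroblasts, had 4.79 to 27.2 CPM in the Landrace pigs (median 15.6) and 10.2 to 31.9 CPM in the Duroc pigs (median 24.2), a fitted difference of -1.42 ± 0.22 (FDR = 2.30e-05), and the proteoglycan BGN differed by -1.45 ± 0.3 (SE, FDR = 0.00068). The fibrillar collagens COL1A1, COL1A2 and COL3A1, the bulk of tendon and muscle sheath, were not called, with values of -1.01, -0.66 and -0.84.

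These matrix differences depended strongly on the model. Without FCR and age the median of the collagens was -0.21, with 4 members lower, and with breed alone -0.13, with 1. In batches 2 and 3, with RIN and batch in the model, it was 0.27 with none lower, whereas in batches 4 and 5 it was -0.95 with 7 lower. The basement membrane genes went from -0.59 to -0.25, -0.16, 0.04 and -0.62 over the same 4 models, and the interstitial genes to -0.09, 0.07, 0.31 and -0.57. All 3 medians were above 0 in batches 2 and 3, and that of the interstitial genes also with breed alone. NID2 turned as well, to 0.25 there. The fibroblast markers chosen for the check of cell types summed to 448 to 10960 CPM in the Landrace pigs (median 1638) and 556 to 5123 CPM in the Duroc pigs (median 1720), so that the raw sums overlapped almost fully. In the joint model 2 of these 6 markers were lower and none higher, with a median of -0.8, so that they moved with the matrix lists, and their part in the result was not tested.

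**Figure D2:**
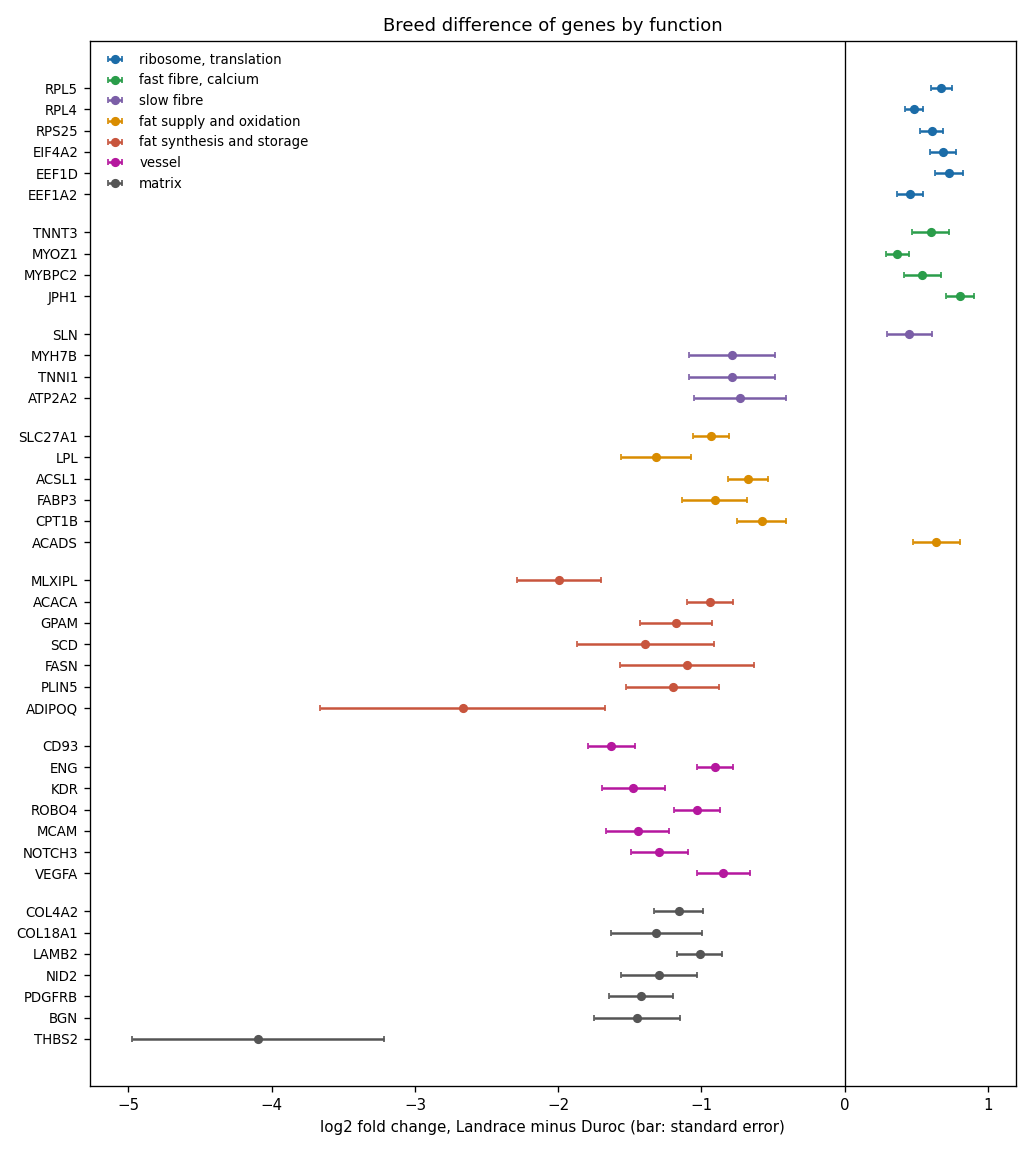
Breed difference (log2 fold change, Landrace minus Duroc, edgeR, with its standard error as a bar) of named genes grouped by function, in 28 Landrace and 13 Duroc pigs. The genes of translation and fast fibres drawn here and JPH1 of calcium handling lie right of 0, between 0.37 and 0.81; most genes of fat use, fat synthesis, vessels and matrix lie left of it, out to -4.1 for THBS2, and ACADS and SLN lie on the right.

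**Figure D3:**
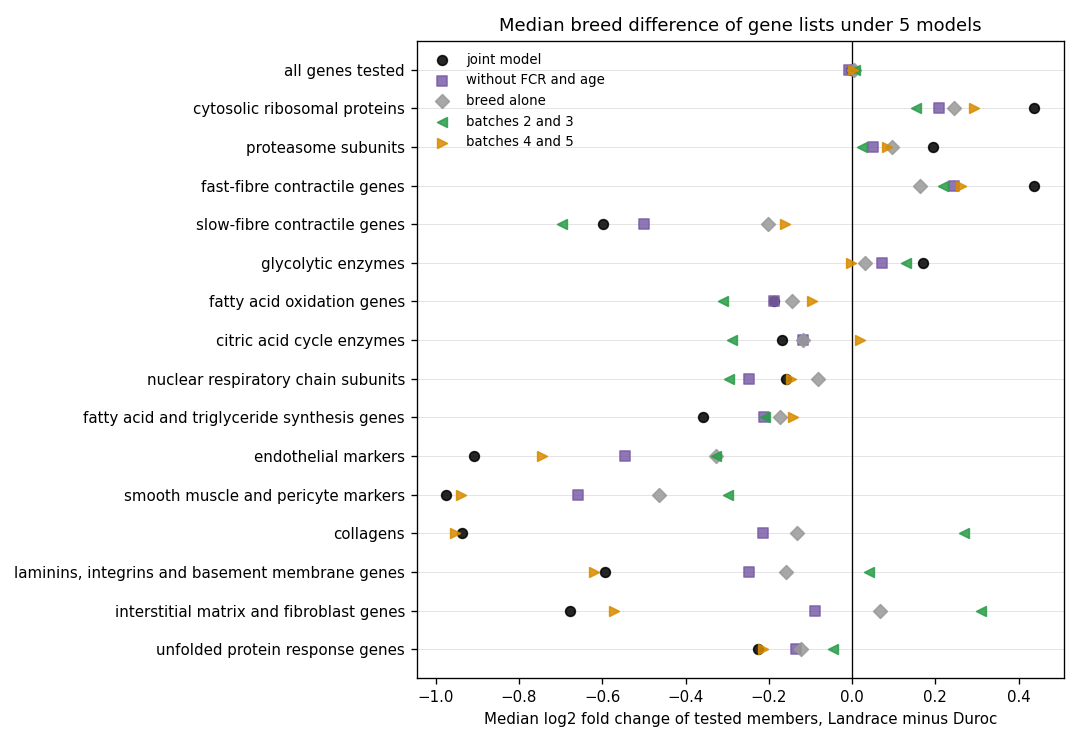
Median log2 fold change (Landrace minus Duroc) of the tested members of gene lists under 5 models, 1 symbol per model. The medians of the ribosomal proteins stay above 0 and those of the endothelial markers below 0 under all 5, while the collagens move from -0.94 in the joint model to 0.27 in batches 2 and 3.

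Growth regulators differed gene by gene. MSTN, myostatin, which limits muscle mass, was higher, at 2.92 to 33.2 CPM in the Landrace pigs (median 10.1) and 2.53 to 11.3 CPM in the Duroc pigs (median 8.97), a fitted difference of 1.17 ± 0.31 (FDR = 0.00609), and 13 Landrace pigs were above every Duroc pig. PAX7, the factor of satellite cells, was lower at 0.724 to 6.71 CPM in the Landrace pigs (median 2.88) and 3.07 to 10.3 CPM in the Duroc pigs (median 4.85), a fitted difference of -1.18 ± 0.31 (FDR = 0.00467), and the inhibitor of differentiation ID3 was lower as well (-0.56, FDR = 0.00832), although not in batches 3 and 4. Other satellite cell markers did not all go with PAX7. Of 9 tested, 1 was higher and 2 lower, and the 33.3% called were close to the 33.1% of all genes. The 3 chosen for the check of cell types summed to a median of 59.1 CPM in Landrace and 54.9 CPM in Duroc. MYF6, a factor of mature fibres, was higher (0.99, FDR = 0.0339). The list of myogenic and myostatin genes as a whole was balanced, with 7 higher and 7 lower of 41, or 34.1% called against 33.1% of all genes. In the system of insulin-like growth factors, 5 of 19 were lower and 2 higher, or 36.8% called. IGF1 had 0.887 to 2.74 CPM in the Landrace pigs (median 1.64) and 0.625 to 3.67 CPM in the Duroc pigs (median 1.81), a fitted difference of -0.78 ± 0.2 (FDR = 0.0042), and within the batches it differed by -0.07, 0.01, -0.07 and -0.87, so that batch 5 carried most of the difference. The binding proteins IGFBP7 (-0.81, FDR = 0.000335) and IGFBP4 (-1.04, FDR = 0.00388) were lower, and STAT5B, which relays growth hormone, was higher (0.44, FDR = 0.000735). Of the genes of cell division, 9 of 21 were lower and 2 higher, or 42.9% and 9.52% against 17.5% and 15.6% of all genes, led by the cyclin CCND1 (-0.95, FDR = 0.000616). This depended on the model, with 4 lower without FCR and age, 2 with breed alone and none in batches 2 and 3. The median of this list went from -0.28 in the joint model to 0.06 in batches 2 and 3.

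Candidate genes of pig breeding, a list that was put together for this comparison, gave 4 higher and 7 lower of 26 tested, or 15.4% and 26.9% against 15.6% and 17.5% of all genes. PRKAG3, whose variants are known for their effect on muscle glycogen and meat quality, had 40.6 to 143 CPM in the Landrace pigs (median 94.5) and 57.3 to 91.9 CPM in the Duroc pigs (median 67.4), with 18 Landrace pigs above every Duroc pig (0.55 ± 0.15, FDR = 0.00805). The fat genes ACACA, SCD, FASN and FABP3 and the regulators MSTN, PPARGC1A and MYH3 of this list are given above. TBX3, a developmental factor, was lower (-0.71, FDR = 0.00377), and the oestrogen receptor ESR1 was higher, at 2.0 to 5.72 CPM in the Landrace pigs (median 3.63) and 1.07 to 3.62 CPM in the Duroc pigs (median 2.4), a fitted difference of 0.6 ± 0.21 (FDR = 0.037). KIT, the receptor gene behind the white coat of Landrace, was low in muscle, at 0.704 to 3.66 CPM in the Landrace pigs (median 1.69) and 0.259 to 2.37 CPM in the Duroc pigs (median 0.632). It was called at 0.76 ± 0.31 (SE, FDR = 0.0641), and the call was lost without Duroc pig 1, 3 or 10, at 0.66 to 0.7. The calpain CAPN1 (0.1), the fatty acid carrier FABP4 (0.25) and the phosphorylase kinase subunit PHKG1 (0.15) did not pass the test.

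Of genes of defence against oxidation, 6 were higher and 3 lower of 39, or 23.1% called against 33.1% of all genes. The glutaredoxin GLRX3 (0.35, FDR = 0.0011) and KEAP1, the sensor of the oxidative stress response (0.35, FDR = 0.0013), were higher. Of 36 genes of the interferon response 1 was higher and 3 lower, of 18 genes of antigen presentation 1 and 1, and of 15 complement genes none and 2. The clock genes had 3 higher and 1 lower of 22, and the glucocorticoid response genes 2 and 2 of 20. The shares called in these lists, from 11.1 to 20%, were below the 33.1% of all genes.

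Of the 72 gene lists that were described, 63 had at least 10 tested members, and in 36 of these the share called was above the 33.1% of all genes. In 11 it was above 50%. The called members were all higher in 5 lists and all lower in 8, 49 lists had members in both directions, and 1 had none. Across the 18 autosomes the share called lay between 28.8% on chromosome 4 and 39.2% on chromosome 11, with 29.7% on X.

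**Figure D4:**
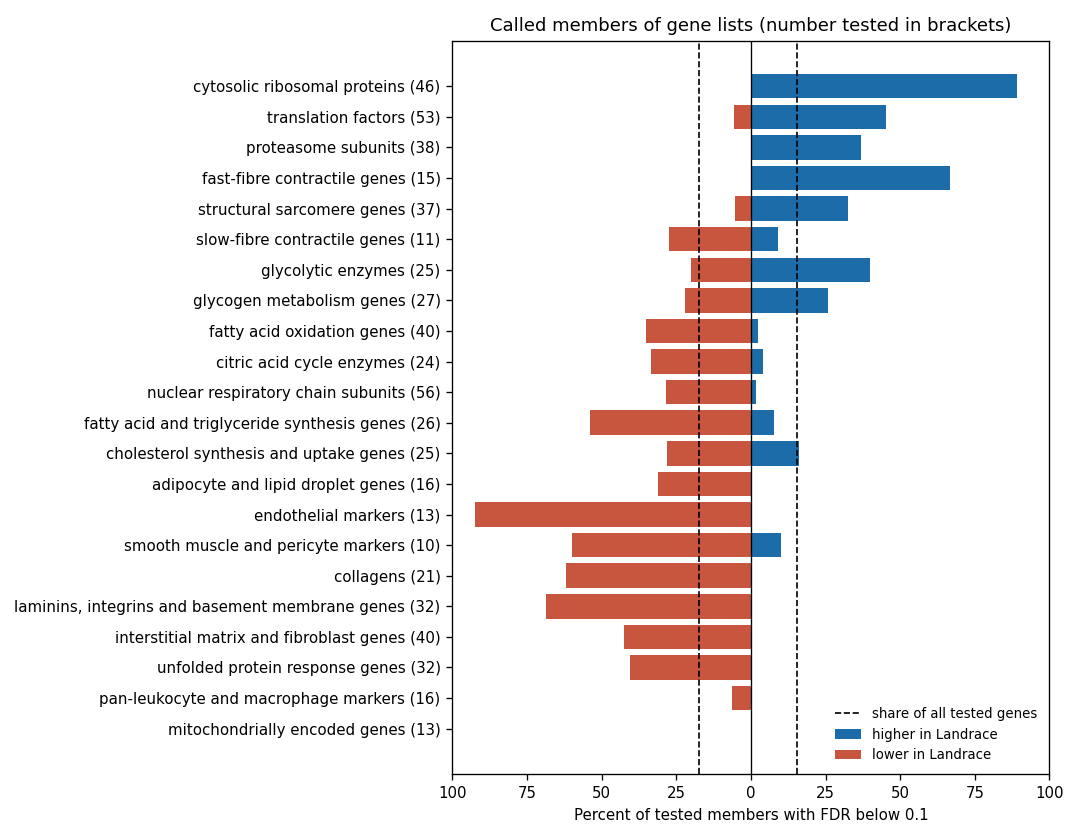
Percent of the tested members of each gene list called higher (right) or lower (left) in Landrace at an FDR below 0.1, with the number tested in brackets and the share of all tested genes as dashed lines (15.6% higher, 17.5% lower). The bars of the cytosolic ribosomal proteins (41 of 46 higher) and of the endothelial markers (12 of 13 lower) are the longest, and no mitochondrially encoded gene was called.

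Whether the breed difference depended on the slaughter batch was tested with a breed by batch term in the 40 pigs of batches 2 to 5. It was called for 2 genes (0.0179%) at an FDR below 0.1, ETV2 and ENSSSCG00000012427, named here after their values were seen, and 682 genes (6.12%) had an unadjusted p-value below 0.05. No collagen was called in this test, which had 2 to 4 Duroc pigs in each batch.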

How the data were processed

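Psoas major RNA of 41 boars was sequenced after poly(A) selection, with 1 library per pig. Per the labels and the study's methods, the authors trimmed the reads with Trimmomatic 0.39, aligned them with STAR 2.7.1a to the pig genome Sscrofa11.1 with the Ensembl 96 annotation, and deposited the read counts per gene that STAR wrote. The unstranded counts were used here. Genes that overlap or lie antisense to each other could therefore not be told apart, and pairs with several positions are absent, which lowers near-identical copies. The 4 summary lines of each file stayed out of library sizes and tests. They held 7.53 to 16.2% of the pairs without a gene, 6.79 to 8.89% ambiguous, 2.48 to 3.75% at several places and 1.49 to 2.29% unmapped.

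Pigs were grouped by the breed label. Counts were filtered (filterByExpr, minimum count 10 and total 15), scaled by TMM and tested by quasi-likelihood F-tests (edgeR 4.0.16, R 4.3.3), with FCR, RIN, age, batch as a factor and breed as terms and 32 residual degrees of freedom. P-values were adjusted by Benjamini and Hochberg over the 11146 genes, with a threshold of 0.1, and measure the spread between pigs. DESeq2 1.42.0 (at least 5 counts in every pig, 10765 genes), limma 3.58.1 and other scalings, filters, covariates and sets of pigs were alternatives. The share of mitochondrial counts was compared by a permutation test written with NumPy 2.4.6, and the edgeR script was tested on simulated data. No pair of libraries agreed within sampling noise.

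Symbols were given for 14857 of the gene IDs, and coordinates, which are RefSeq gene spans on Sscrofa11.1 matched by symbol, for 13707. That assembly comes from a Duroc pig, and the effect of this on alignment in Landrace was not tested. The text names the 12 genes with the smallest p-values and the 8 with the largest fold changes (mean CPM of at least 1) in each direction, all genes without overlap, genes without a symbol if among the 5 smallest p-values, and from each list the 3 members with the smallest p-values or members with a described role. The lists and the genes named were chosen with earlier results of these data known. A log2 fold change of a gene at low counts depends on the prior count. Sequences were not used here, and a few genes that the naming rule selects are not reported here.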

Additional observations from a re-analysis of the deposited data

Results flagged for a closer look

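A test of the breed difference against the slaughter batch called 2 genes. ETV2, a transcription factor of endothelial and blood cell development, had an interaction FDR of 0.0429 (edgeR). Its log2 CPM was 1.54 lower in Landrace in batch 2 (a difference of -1.54), with 4.76 to 8.63 CPM in the 3 Duroc pigs and 1.12 to 4.33 CPM in the 12 Landrace pigs, and differed by 0.68 in batch 3, where the 2 Duroc pigs had 1.45 and 1.5 CPM. Batches 4 and 5 gave -0.57 and -0.56, and the breed term of the joint model was -0.83 (FDR = 0.0108).

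ENSSSCG00000012427, a gene without a symbol, also had an interaction FDR of 0.0429. In batch 2 the 3 Duroc pigs had 0.93 to 1.81 CPM and the 12 Landrace pigs 11.0 to 29.0 CPM, a difference of 3.96 in log2 CPM, and batches 3, 4 and 5 gave 1.08, 1.20 and 0.75. In batch 4 the Duroc pigs spread from 1.68 to 24.5 CPM. The joint breed term was 1.39 (FDR = 0.0257). With 2 to 4 Duroc pigs in each batch, both results rest on few animals.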

How the results depend on the processing

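Of 143 genes named in the text with a described value, 140 kept the direction of their breed difference in all 15 alternatives that could be fitted for them, and 132 stayed called without each of the 13 Duroc pigs in turn. The call was lost by 0 of these genes with RLE scaling, 3 in limma and 1 of the 137 with a value in DESeq2, which had another filter on low counts, against 64 in batches 2 and 3 alone, 34 of the 136 fitted in batches 4 and 5 and 37 with breed alone. Turned in batches 2 and 3 were ADIPOQ (0.035), PFKFB3 (-0.24) and NID2 (0.25). Without 1 Duroc pig, 3056 to 3788 genes were called.

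The total of 3692 genes was 1412 in batches 2 and 3 (609 higher, 803 lower), 2018 in batches 4 and 5 (964 and 1054), 2209 with breed alone (1077 and 1132) and 2434 without batch, with 1274 lower. With library size only, 534 genes were higher and 3596 lower. By list, breed alone left 21 ribosomal proteins, 2 fast-fibre genes and 2 proteasome genes higher, and 6 endothelial, 1 collagen, 7 basement membrane, 3 interstitial, 7 fat synthesis, 5 respiratory chain and 7 unfolded protein response genes lower. Batches 2 and 3 left 7, 0 and 2 higher, and 2, 0, 4, 1, 4, 27 and 1 lower, and batches 4 and 5 left 25, 2 and 2 higher and 7 collagen, 10 basement membrane, 6 interstitial, 7 fat synthesis, 5 fat oxidation and 7 respiratory chain genes lower. Without FCR and age, 4 proteasome genes were higher, and 4 collagen, 8 basement membrane, 5 interstitial, 8 fat synthesis and 36 respiratory chain genes lower. Library size only gave 1 proteasome gene higher and 40 respiratory chain genes lower, and added fibre and fat scores 7 of the latter. The fits in pairs of batches had fewer pigs and also left out FCR and age, and the cause of the changes was not tested.

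Breed, FCR and age were partly confounded (variance inflation of 2.42), so that a model without FCR and age and the joint model answer different questions. Batch 1 held 1 Duroc pig and gave no comparison. The share of mitochondrial counts differed by -1.86 percentage points after adjustment for RIN and batch (permutation p = 0.0715) and by -1.50 without pigs of RIN below 7 (p = 0.267). No paired analysis was possible because the replicate numbers only name the pigs in accession order. Levels near 1 CPM rest on about 25 read pairs per pig, which limits the genes of low level.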

Other observations

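Zinc finger genes, most of them repressors of transcription, had 33 higher and 15 lower of 197 tested, but 8 higher and 33 lower with library size only, and the 24.4% called is below the 33.1% of all genes. Proteins of the mitochondrial ribosome had 10 higher and 3 lower of 58, and 17.2% higher is near the 15.6% of all genes. With library size only 1 was higher and 17 lower, and without FCR and age 4 and 14. Of carriers of the mitochondrial inner membrane, 5 were higher and 12 lower of 34, or 35.3% lower against 17.5% of all genes. Markers of red blood cells, which report blood left in the sample, summed to 11.0 to 203 CPM in the Landrace pigs (median 40.2) and 6.67 to 83.7 CPM in the Duroc pigs (median 25.0), and neither of the 2 tested was called in the joint model (median 0.85). Both were higher with breed alone (median 1.13) and with the fibre and fat scores added (1.55), and 1 of them in DESeq2, in limma and without the pigs of RIN below 7. Satellite cell markers summed to 27.3 to 89.3 CPM (median 59.1) and 44.6 to 68.5 CPM (median 54.9), with 1 of 3 higher and 1 lower. Markers of lymphocytes were low in both breeds, at 1.60 to 21.9 and 3.17 to 11.1 CPM.

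Of the 10 genes without overlap between the breeds, 6 had coordinates, and the tested genes within 500 kb of them were counted after the data were seen. Over all genes 33.1% were called. Around TBC1D7, 3 of 5 neighbours were called, 2 of them in its direction (NOL7 at 0.36 and RANBP9 at 0.30), and around ACSM5 3 of 7, with IQCK at 0.74 and THUMPD1 at 0.35 in its direction. MSRB2 had 2 neighbours, of which PIP4K2A (-0.94) was lower in Landrace like it, and FAM151B had 6, of which RASGRF2 (-1.0) and MTX3 (-0.55) were. Both neighbours of EFCAB2, DESI2 (0.23) and HNRNPU (0.16), were higher, and of the 8 around ASB1, ILKAP (0.39) was higher and HES6 (-0.43) lower.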
